A study of Mus musculus with 14 samples.

Results

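Of 53220 H3K27ac peaks listed in control MuSCs (muscle stem cells) at an irreproducible discovery rate (IDR) of at most 0.01, 2991 peaks (5.62%) overlapped no H3K27ac peak of the BMP6-stimulated cells. These vehicle-only peaks were selected on the measured H3K27ac lists themselves, by an overlap of less than 1 bp with every peak of the BMP6 list and by their IDR, so the H3K27ac values below are a description and carry no test. The IDR measures how well a peak's rank repeats between both replicates, and small values mark peaks that repeat well. At the authors' own threshold of 0.05, the control list held 67790 peaks and the BMP6 list 78050. In the other direction, 9635 of 60393 BMP6 peaks (16.0%) overlapped no control peak. The 50229 control peaks with a partner in the BMP6 list are called shared peaks here.

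The cells came from 9-week-old female C57BL/6N mice that carry a Pax7-EGFP transgene, and were enriched by FACS for the GFP reporter driven by Pax7. All cells, control cells included, were starved for 6 h in serum-free medium with 200 ng/mL soluble BMPR-1A-Fc, a decoy receptor that binds BMPs. They then received 100 ng/mL BMP6, a bone morphogenetic protein, or the vehicle alone (4 mM HCl with 0.1% BSA) for 1 h. CUT&Tag, in which an antibody guides a transposase to chromatin, was done on 100000 cells per condition for H3K27ac, SMAD4 and pSMAD1/5/9, with 2 biological replicates for each antibody and condition. Of 14 libraries, 12 stand behind the 6 peak lists, while the 2 libraries from incubations lacking a primary antibody were not used here. Each list is 1 consensus of both replicates, and no read counts are in it, so the number of reads behind a peak is unknown and no p-value is given. Per the methods, reads were subsampled to the same depth for each antibody. Intervals of shares cover counting error over peaks only.

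The lists were checked at marker genes of the labelled cell type and of others, beside 53.3% (52.7 to 54.0) of all genes outside the X chromosome that had a control H3K27ac peak within 2 kb of the TSS (transcription start site). Among 16 MuSC marker genes, 14 had such a peak, Pax7, Myf5 and Myod1 among them, while Calcr and Chrdl2 had none. Of the myofibre markers, 10 of 12 had one, and of the pericyte and smooth muscle markers 5 of 7. Fibro-adipogenic cells were represented by 5 of 10 markers, with Pdgfra without a peak. Endothelial cells (2 of 9), immune cells (2 of 9) and Schwann cells (2 of 7) had few, and Pecam1, Cdh5, Ptprc and Sox10 had none. In the BMP6 list the numbers were 14 for MuSCs, 10 for myofibres, 5 for pericytes, 5 for fibro-adipogenic cells, 3 for endothelial, 1 for immune and 3 for Schwann cells. The 53.3% of all genes refers to the control list at an IDR of at most 0.05.

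H3K27ac is the acetylation of lysine 27 of histone H3, written by the acetyltransferases p300 and CBP and removed by histone deacetylases. It marks active promoters and enhancers, and many of its sites far from promoters differ between cell types. BMP ligands act through phosphorylated SMAD1, SMAD5 and SMAD9, which enter the nucleus with SMAD4 and bind DNA, and in MuSCs this pathway holds back differentiation.

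The sequences of 6 vehicle-only peaks are shown to make the regions concrete. They are windows of 150 bp centred on the peak summit, on the plus strand of GRCm39, and they contain no exon of an annotated transcript of a protein-coding gene. The first is from the strongest vehicle-only peak of all, at chrX:142284862-142285011 between genes near Pak3. The second is from the strongest on an autosome, at chr2:4492833-4492982 in an intron of Frmd4a. The third, at chr16:93135811-93135960 in a gene-poor stretch whose nearest TSS is that of Setd4, belongs to a peak that also held a SMAD4 peak of control cells and was the strongest of these whose window contained no exon. Both peaks that follow overlapped a pSMAD1/5/9 peak of BMP6-stimulated cells, at chr9:121122272-121122421 near Trak1 and at chr16:29997467-29997616 near Cpn2. The last one, at chr7:73422446-73422595 in an intron of Fam174b, had the most myogenic E-boxes in its window among the autosomal peaks considered. The windows were chosen after the values of the peaks were seen. Capitals mark matches, on either strand, to the 13 motifs described further below.

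Near Pak3: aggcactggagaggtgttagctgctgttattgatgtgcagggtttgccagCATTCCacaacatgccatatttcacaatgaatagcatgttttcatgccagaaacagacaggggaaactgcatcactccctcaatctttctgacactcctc
In Frmd4a: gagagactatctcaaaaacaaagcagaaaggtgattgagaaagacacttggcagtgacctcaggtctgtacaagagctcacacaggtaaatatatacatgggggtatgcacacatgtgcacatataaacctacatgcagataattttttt
Nearest to Setd4: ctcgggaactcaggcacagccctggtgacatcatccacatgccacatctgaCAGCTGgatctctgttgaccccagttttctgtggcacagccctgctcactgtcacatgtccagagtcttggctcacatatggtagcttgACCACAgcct
Near Trak1: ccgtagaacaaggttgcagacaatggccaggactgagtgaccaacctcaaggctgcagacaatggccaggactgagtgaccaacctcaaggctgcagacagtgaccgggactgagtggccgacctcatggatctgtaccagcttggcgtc
Near Cpn2: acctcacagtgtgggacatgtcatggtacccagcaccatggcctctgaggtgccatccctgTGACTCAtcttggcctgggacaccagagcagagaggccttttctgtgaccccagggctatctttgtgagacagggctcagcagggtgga
In Fam174b: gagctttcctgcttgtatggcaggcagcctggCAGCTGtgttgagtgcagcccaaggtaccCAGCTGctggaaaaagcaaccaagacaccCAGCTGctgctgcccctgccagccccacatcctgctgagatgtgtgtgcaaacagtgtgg

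The window near Pak3 held 1 match to the TEAD motif, and the window in Frmd4a held none of the 13 motifs. The Setd4 window held an E-box and a RUNX match, and the Cpn2 window an AP-1 match 11 bp upstream of the summit. The Fam174b window held 3 E-boxes. The window near Trak1 held no match, and it repeated itself: shifted by 39 bases, 75.7% of its bases matched their own copy. In the other 5 windows, the best shift between 10 and 75 bases matched 35.0% to 40.4% of bases.

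The vehicle-only peaks were weak peaks of the control list. The signal of a peak is a score from the peak caller, summed over both replicate columns of the list. It ran from 1371 to 4985 in the vehicle-only peaks, with a median of 1770, against a median of 3459 over all 53220 peaks. The best-ranked vehicle-only peak stood at place 16857 of the control list, behind 24.9% of its peaks. When the 53220 peaks were divided into quintiles of signal, the lowest (1370 to 2063) held 2296 of the vehicle-only peaks, which was 76.8% of them and 21.6% of that quintile. The next held 603 (5.67% of the quintile), the middle one 87, the following one 5, and the highest none. The median −log10 of the IDR was 2.40 in vehicle-only peaks and 4.52 in shared peaks, on a scale that ends at 5. Their median width was 1100 bp, against 1700 bp for shared peaks.

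In both replicate columns the values were similar, which the IDR threshold of the rule favours. The first column was the higher one in 1565 vehicle-only peaks (52.3%), and the median log2 ratio of the first over the second was 0.03 with an SD of 0.52 over peaks. In shared peaks the first column was higher in 60.5%, with a median log2 ratio of 0.11 and an SD of 0.49. The SD was larger on the X chromosome than on the autosomes, with 0.66 against 0.48 in vehicle-only and 0.62 against 0.49 in shared peaks. The columns carry no replicate number.

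**Figure D1:**
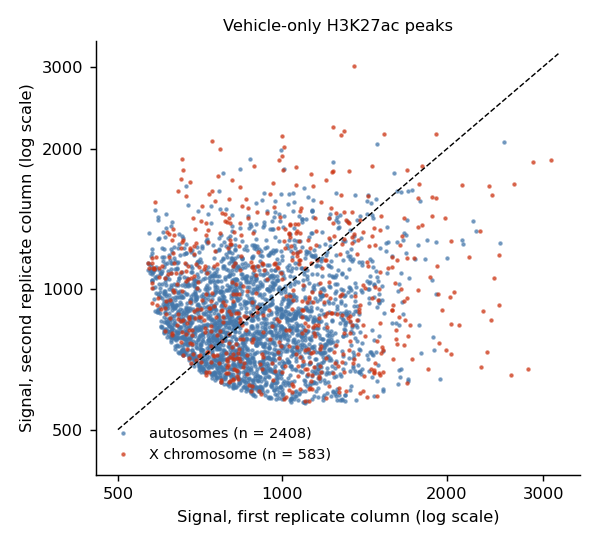
Signal of each of the 2991 vehicle-only H3K27ac peaks in the first (horizontal) and second (vertical) replicate column of the control list, a score on log axes, with 2408 autosomal peaks in blue and 583 X-chromosomal peaks in red. The dashed line marks equal values, and the points lie on both sides of it. No point lies in the corner at the lower left, below the lowest summed signal of 1371.

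Many vehicle-only peaks lay close to a BMP6 peak without touching it. The gap to the nearest peak of the BMP6 list had a median of 2360 bp, with quartiles of 760 and 7510 bp. It was at most 1 kb in 902 peaks (30.2%), at most 100 bp in 104 and 0 bp in 13, and exceeded 10 kb in 581 (19.4%). Positions in the control list moved in steps of 100 bp and those of the BMP6 list in steps of 70 bp, so an overlap was decided on that grid, and the smallest overlap of a shared peak was 10 bp. At the edge of the rule, the vehicle-only peak with the lowest −log10 IDR (2.0001) was at chr14:65562301-65563300, and the nearest one left out (1.9995) at chr17:28006301-28007400. The peak at chr13:24729501-24730300 directly adjoined a BMP6 peak and was kept.

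The X chromosome stood apart. Of its 3125 control H3K27ac peaks, 583 were vehicle-only (18.7%, Wilson 95% interval 17.3 to 20.1), against 2408 of 50095 on the autosomes (4.81%, 4.62 to 5.00). The X chromosome thereby held 19.5% (18.1 to 21.0) of the vehicle-only peaks and 5.87% of all control peaks. Among the autosomes, chromosome 14 had the highest share, 7.89% (6.89 to 9.02), and chromosome 11 the lowest, 2.44% (1.92 to 3.10). The share of each of the 19 autosomes lay below that of the X chromosome, and their intervals did not overlap with its interval.

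**Figure D2:**
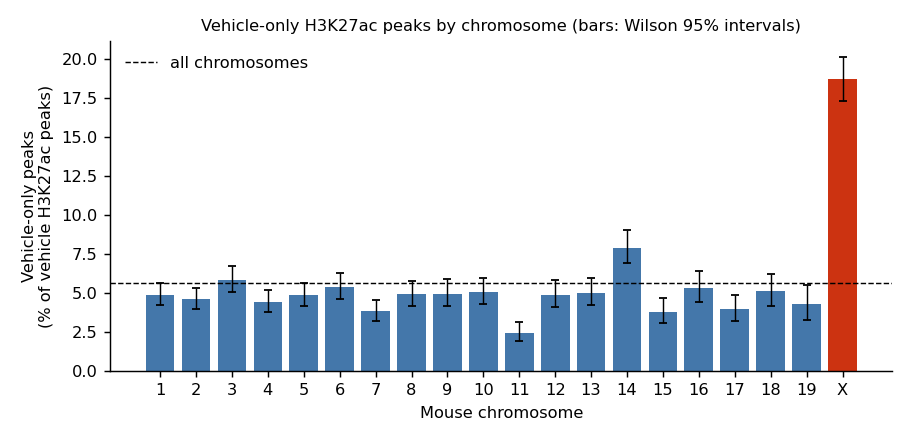
Share of control H3K27ac peaks at an IDR of at most 0.01 that were vehicle-only (vertical axis, percent), by chromosome (horizontal axis), with autosomes in blue, the X chromosome in red and Wilson 95% intervals as error bars. The dashed line is the share over all chromosomes, 5.62%, and the X chromosome reached 18.7%.

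The difference was present within quintiles 1 to 3 of the signal. In the lowest quintile, 48.3% (44.5 to 52.1) of X-chromosomal peaks were vehicle-only, against 1978 of 9985 autosomal peaks (19.8%). In quintile 2 the shares were 30.4% (27.1 to 34.0) and 3.96% (3.59 to 4.36), and in quintile 3 they were 9.37% (7.22 to 12.1) and 0.347% (0.250 to 0.482). Peaks without a partner in the BMP6 list were also stronger on the X chromosome, with a median signal of 1996 against 1734 on the autosomes. This was not particular to them. The medians were 4045 and 3625 in shared peaks, and 1654 and 1500 in BMP6 peaks without a control partner. Of the 100 strongest vehicle-only peaks, 61 were on the X chromosome, and of the 20 strongest, 15.

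They were spread along the chromosome. Of 31 bins of 5 Mb on the X chromosome that held a control peak, 28 held a vehicle-only peak. In the 24 bins with at least 50 control peaks, the share ran from 11.3% to 35.2%, so each of them exceeded the autosomal share of 4.81%.

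The same direction held for peaks listed in the BMP6 list alone. On the X chromosome, 1272 of 3882 BMP6 peaks (32.8%, 31.3 to 34.3) had no control partner, against 8363 of 56511 on the autosomes (14.8%, 14.5 to 15.1). In their lowest quintile of signal, the shares were 70.5% (67.4 to 73.4) and 47.7% (46.8 to 48.6). Both counts come from the same pair of lists, which disagreed more often on the X chromosome in either direction. A control H3K27ac peak covered the TSS region of 453 of 982 X-chromosomal genes (46.1%, 43.0 to 49.3) and of 53.3% (52.7 to 54.0) of the other genes. Both TSS shares refer to the control list at an IDR of at most 0.05.

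**Figure D3:**
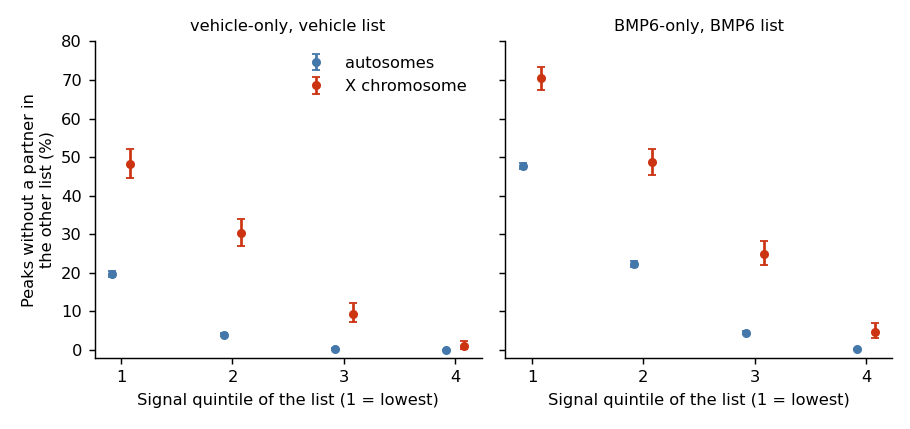
Share of H3K27ac peaks without a partner in the other list (vertical axis, percent) by quintile of signal (horizontal axis, 1 is the lowest), for control peaks on the left and BMP6 peaks on the right, on autosomes (blue) and the X chromosome (red), with Wilson 95% intervals. In quintile 1 of the control list, 48.3% of X-chromosomal and 19.8% of autosomal peaks were vehicle-only; quintile 5 is not drawn.

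The strongest of the vehicle-only peaks was 1300 bp wide, at chrX:142284101-142285400, 16366 bp upstream of the TSS of Pak3, which encodes a p21-activated kinase. Its signal of 4985 was made of 3095 in the first and 1891 in the second replicate column. The next, at chrX:80067001-80069100, lay 46646 bp upstream of Tmem47, a gene for a membrane protein of cell junctions, with 2876 and 1875. The third was the strongest on an autosome, with 2543 and 2064, at chr2:4491701-4495000 in an intron of Frmd4a, a scaffold protein gene. In each column alone, these 3 peaks exceeded 1371, the summed signal of the weakest vehicle-only peak.

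P2ry10b, a gene of the purinergic receptor family, was the only gene with one of the 20 strongest peaks at its TSS, at chrX:106190301-106191700, with 2649 and 1680. Its nearest BMP6 peak was 260 bp away.

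Further X-chromosomal peaks among the 20 strongest lay nearest to the TSS of Fgf13 (an intracellular fibroblast growth factor homologue), Itm2a, Gpr82 (an orphan receptor, the peak lying in an intron of Cask), Prrg3, Itih6, Ube2a (a ubiquitin-conjugating enzyme), Spin2-ps2, Reps2 (an endocytosis adaptor), Usp27x (a deubiquitinase), Med14 (a Mediator subunit) and Eras (a Ras family GTPase, the peak lying in an intron of Hdac6). Further autosomal ones were nearest to Grtp1, Smlr1 (the peak lying in an exon of Epb41l2) and Actr3b (an actin-related protein). Over all 20, the signal ran from 3485 to 4985, and the first column was higher in 14. The peak nearest to Eras was the most uneven, with 2812 and 673 and a −log10 IDR of 2.06. By location, 8 of the 20 were in introns, 8 in intergenic sequence, 3 in exons and 1 at a TSS.

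Vehicle-only peaks were less often at a TSS than shared peaks. Each peak received 1 location: TSS if it reached within 2 kb of one, and failing that exon, intron and intergenic, with the earlier class taking precedence. At a TSS lay 111 of the 2991 (3.71%, 3.09 to 4.45), against 20.1% of all control peaks and 21.1% (20.7 to 21.4) of shared peaks. When the TSSs of all transcripts were counted, and not only the canonical one of each gene, the shares were 15.4% (14.2 to 16.8) and 32.7% (32.3 to 33.1), a difference of -17.3 points (-18.6 to -15.9). Exons held 20.0% (18.6 to 21.5), against 16.5% of all control peaks. Introns held 42.4% (40.6 to 44.1), against 34.0%, and intergenic sequence 33.9% (32.2 to 35.6), against 29.4%. The median distance from the summit to the nearest TSS was 38767 bp in vehicle-only and 25920 bp in shared peaks. Among autosomal peaks of the lowest quintile of signal, the medians were closer, 37855 and 34300 bp.

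Because the vehicle-only peaks were weak, they were also set beside shared peaks of the lowest quintile of signal on the autosomes, 1978 against 8007 peaks. There, 3.44% (2.72 to 4.34) and 6.37% (5.86 to 6.93) lay at a TSS, a difference of -2.93 percentage points with a Newcombe 95% interval from -3.84 to -1.90. Intergenic sequence held 30.9% (28.9 to 33.0) of the vehicle-only peaks, a difference of 3.95 points (1.72 to 6.24). For introns the interval of the difference included 0 (-1.30 points, -3.73 to 1.16), and likewise for exons (0.276 points, -1.69 to 2.33). Within this quintile the median signal was still lower in the vehicle-only peaks, 1665 against 1768. In quintile 2 on the autosomes, the TSS difference was -4.86 points (-6.51 to -2.36). The intergenic difference there was 0.348 points, and its interval included 0 (-4.07 to 5.14). In the lowest quintile on the X chromosome, 5.66% of vehicle-only and 4.99% of shared peaks lay at a TSS, a difference of 0.675 points (-2.84 to 4.29). The intergenic difference was 3.83 points (-3.77 to 11.4). Against BMP6-only peaks, of which 4.92% (4.51 to 5.37) lay at a TSS, the difference over all chromosomes was -1.21 points (-1.97 to -0.361). On the autosomes it was -1.50 points (-2.32 to -0.573), and on the X chromosome 0.150 points (-1.77 to 2.41).

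Among the 111 at a TSS, 27 were on the X chromosome. After P2ry10b, the strongest were at Enox2, with 1136 in the first and 1665 in the second replicate column, and at Sh3rf2, with 1547 and 1209. Another was at the TSS of Dach2, a homologue of the Drosophila gene dachshund, at chrX:112207301-112208600, with 654 and 1905, and its nearest BMP6 peak was 111680 bp away. These 3 genes were chosen after their values were seen.

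SMAD peaks were almost absent from the vehicle-only peaks. A SMAD4 peak of control cells overlapped 13 of 2991 (0.435%, 0.254 to 0.742), against 12.5% of all control H3K27ac peaks and 13.2% (12.9 to 13.5) of shared peaks. A SMAD4 peak of BMP6-stimulated cells also overlapped 13 (0.435%, 0.254 to 0.742), against 17.8% of all and 18.9% (18.5 to 19.2) of shared peaks. A pSMAD1/5/9 peak of BMP6-stimulated cells overlapped 7 (0.234%, 0.113 to 0.482), against 11.2% of all and 11.9% (11.6 to 12.1) of shared peaks. For pSMAD1/5/9 of control cells the number was 0 of 2991, which allows a share of up to 0.100%, against 1.64% of all control peaks. In total, 30 vehicle-only peaks (1.00%, 0.703 to 1.43) overlapped a peak of any of the 4 SMAD lists. The SMAD lists themselves took no part in the choice of the vehicle-only peaks. The rule did remove every peak that touched a BMP6 H3K27ac peak, and the paper reports that most SMAD peaks overlapped H3K27ac peaks. A low overlap with the SMAD lists of BMP6-stimulated cells is therefore in part built into the choice, here and in the comparisons that follow.

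The gap was smaller among peaks of like signal. In the lowest quintile on the autosomes, SMAD4 of control cells overlapped 11 of 1978 vehicle-only peaks (0.556%) and 0.937% of the shared peaks, and the interval of the difference, -0.381 points, included 0 (-0.721 to 0.0954). SMAD4 of BMP6-stimulated cells overlapped 6 (0.303%) and 2.10%, and here the difference of -1.79 points kept its sign over its interval (-2.17 to -1.33). On the X chromosome, it overlapped 4 of 318 (1.26%) and 2 of 341 (0.587%) in that quintile, a difference of 0.671 points (-1.04 to 2.65). In quintile 2, it overlapped 0 of 394 autosomal vehicle-only peaks, which allows a share of up to 0.761%, and 3.88% of shared peaks. For pSMAD1/5/9 of BMP6-stimulated cells the numbers in the lowest quintile were 4 of 1978 (0.202%) and 40 of 8007, with a difference of -0.297 points (-0.516 to 0.0459). No peak of the control pSMAD1/5/9 list was found in either group of that quintile.

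Against the BMP6-only peaks, selected by the same rule in the other direction, the overlap with SMAD4 of BMP6-stimulated cells differed by -1.16 points (-1.49 to -0.779), from 0.435% in vehicle-only to 1.60% (1.37 to 1.87) in BMP6-only peaks. On the X chromosome, which held 7 of the 13 overlaps, the sign was the opposite and the interval included 0, with 1.20% and 0.708%, a difference of 0.493 points (-0.390 to 1.79). With SMAD4 of control cells the shares were 0.435% and 0.467% (0.349 to 0.624), with a difference from -0.272 to 0.297 points. With pSMAD1/5/9 of BMP6-stimulated cells they were 0.234% and 0.415% (0.305 to 0.565), with a difference from -0.373 to 0.0905 points.

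**Figure D4:**
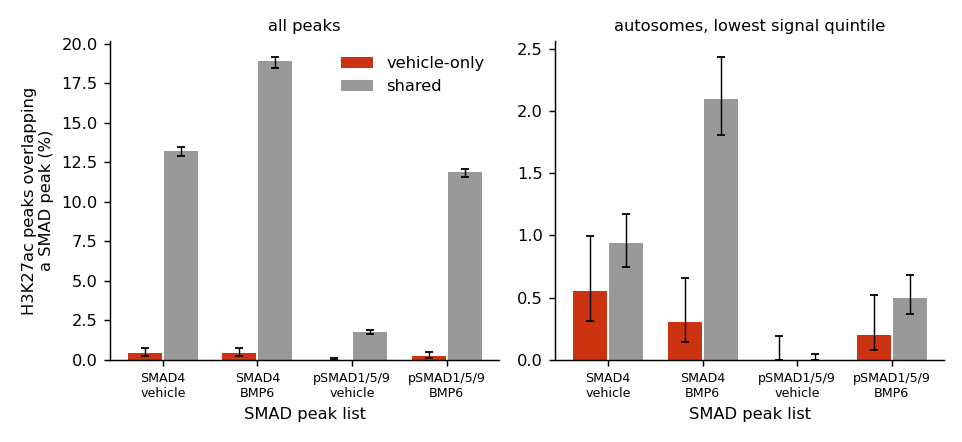
Share of vehicle-only (red) and shared (grey) control H3K27ac peaks that overlapped a peak of each SMAD list (vertical axis, percent; the scales of both panels differ), for all peaks on the left and for autosomal peaks of the lowest signal quintile on the right, with Wilson 95% intervals. Over all peaks 0.435% of vehicle-only and 18.9% of shared peaks overlapped SMAD4 of BMP6-stimulated cells, and in the lowest quintile 0.303% and 2.10%.

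The few exceptions are named here after their values were seen. The peak at chr9:121122101-121122800, 4231 bp upstream of Trak1, a kinesin adaptor gene, was listed for SMAD4 in control and in BMP6-stimulated cells and for pSMAD1/5/9 in BMP6-stimulated cells, with an H3K27ac signal of 855 and 800 in the replicate columns. Its summit window is the one with the repeated stretch shown above. The peak at chr8:15098801-15100100, nearest to BB014433, was listed for SMAD4 under both conditions, with 957 and 704.

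In BMP6-stimulated cells alone, SMAD4 was listed at the peak upstream of Tmem47, the second strongest of the 2991, and at an intronic peak of Eya2, a gene of a myogenic coactivator, at chr2:165542101-165542800. The Eya2 peak had 858 and 657 in the replicate columns, and its nearest BMP6 H3K27ac peak was 57040 bp away. Of the 13 vehicle-only peaks with SMAD4 of BMP6-stimulated cells, 7 were on the X chromosome, 1 of them in an intron of Dmd. The 7 with pSMAD1/5/9 of BMP6-stimulated cells lay nearest to Lingo4, Acsl4, Trak1, Cpn2, Cbarp, Taf7l and Gse1, with H3K27ac signals from 1408 to 2325.

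The base composition was close to that of shared peaks. The median GC content was 47.0% in autosomal vehicle-only and 48.4% in autosomal shared peaks, and 43.3% and 44.5% on the X chromosome. In the lowest quintile of signal on the autosomes, the medians were 47.0% and 47.7%.

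Sequence motifs were searched in the 200 bp around each summit, on both strands and independently of each other, so that matches to AGGNGGC and GGGCGG may share bases. The SMAD motifs were GGCGCC (a BMP-responsive element), its variant with an adenine, GGAGCC, and the palindromic site GTCTAGAC. The others were the E-box CAGCTG of myogenic factors, TGANTCA (AP-1), TGGGAA (the core of the Notch effector RBPJ), GGAATG (TEAD), TATTTATA (MEF2), TGTGGT (RUNX), CCGGAAGT (ETS), GGGCGG (SP and KLF), AGGNGGC (CTCF core) and CCAAT (NF-Y). Shares over all control windows refer to the list at an IDR of at most 0.05. A match is a string of letters and not a measured binding site.

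Of the 3 SMAD strings, GGCGCC and the palindrome were in few of the vehicle-only windows, and GGAGCC was in more of them. GGCGCC was in 1.34% (0.984 to 1.82) of them, against 3.62% of the windows of all 67790 control peaks, and GGAGCC in 12.5% (11.3 to 13.7), against 17.2%. The palindrome was in 3 windows (0.100%), against 0.260%. In the lowest quintile on the autosomes, the intervals of all 3 differences from shared peaks included 0, with -0.107 points for GGCGCC (-0.641 to 0.572), -1.41 for GGAGCC (-3.05 to 0.332) and -0.174 for the palindrome (-0.333 to 0.109). In windows of 400 bp, that of GGAGCC was -2.67 points and its interval left out 0 (-4.75 to -0.517).

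In that quintile, the interval left out 0 for 3 of the 13 motifs. The AP-1 string was in 8.75% (7.58 to 10.1) of vehicle-only and 11.5% (10.8 to 12.2) of shared windows, a difference of -2.78 points (-4.15 to -1.29), and in 12.9% of all control windows. The GC box GGGCGG was in 4.65% (3.81 to 5.67) and 5.94% (5.45 to 6.48), a difference of -1.29 points (-2.29 to -0.160), and in 11.4% of all control windows. Over all peaks the E-box was in 20.6% of vehicle-only and 22.9% of shared windows, a difference of -2.27 points (-3.73 to -0.735). In the lowest quintile on the autosomes the sign was the opposite, with 21.9% (20.2 to 23.8) and 18.8%, a difference of 3.12 points (1.15 to 5.18), and was in 21.5% of all control windows. In windows of 400 bp the E-box difference was 2.28 points and its interval included 0 (-0.0391 to 4.63). With X-chromosomal peaks included, it was 1.66 points (-0.144 to 3.54).

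The differences of the other motifs ran from -1.10 to 0.111 points in that quintile, and their intervals included 0. RBPJ cores were in 19.2% of vehicle-only windows and 19.1% of all control windows, RUNX strings in 18.5% and 19.1%, CCAAT in 21.2% and 20.1%, TEAD strings in 11.1% and 12.3%, CTCF cores in 11.7% and 15.1%, MEF2 cores in 0.970% and 0.934%, and ETS strings in 0.0669% and 0.814%.

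Next, it was examined which genes had a vehicle-only peak in their body or the 20 kb on either side. There were 2702 of 21757 protein-coding genes (12.4%), while 15658 (72.0%) had any control H3K27ac peak at this IDR. Most of the 2702 had a single one (2129 genes), 406 had 2 and 115 had 3. Genes with a vehicle-only peak were long, with a median body of 44.1 kb, against 22.0 kb for the 12956 genes that had control peaks and no vehicle-only peak, and had more control peaks (a median of 6 against 3). The way of counting favours both differences, because a long gene with many control peaks has more places for a vehicle-only peak. Of the vehicle-only peaks, 355 (11.9%) had another vehicle-only peak within 10 kb, and 1938 (64.8%) had a shared peak within that distance. Shared peaks were far more numerous (50229 against 2991), so these shares do not measure grouping.

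The largest numbers were at 2 very long genes of the X chromosome, with 18 vehicle-only peaks each. Il1rapl2, a synaptic interleukin-1 receptor accessory protein gene with a body of 1278 kb, had 36 control peaks, 18 of them vehicle-only. Their signals ran from 1454 to 3483, against 1436 to 14438 for its 18 shared peaks. Dmd, the dystrophin gene, whose product links the cytoskeleton of muscle fibres to the membrane, has a body of 2257 kb and had 54 control peaks, of which 33.3% were vehicle-only. Their signals ran from 1409 to 3460, against 1398 to 16901 for 36 shared peaks. The strongest of them, at chrX:82036001-82037100, lay 44067 bp downstream of the TSS of Dmd, with 1236 in the first and 2223 in the second replicate column.

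At both genes the BMP6 list also had peaks of its own. There were 11 BMP6-only peaks among 27 BMP6 peaks at Il1rapl2 and 27 among 64 at Dmd. Vehicle-only and BMP6-only peaks were interspersed along the gene bodies, and the tallest peaks of either gene were shared ones.

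**Figure D5:**
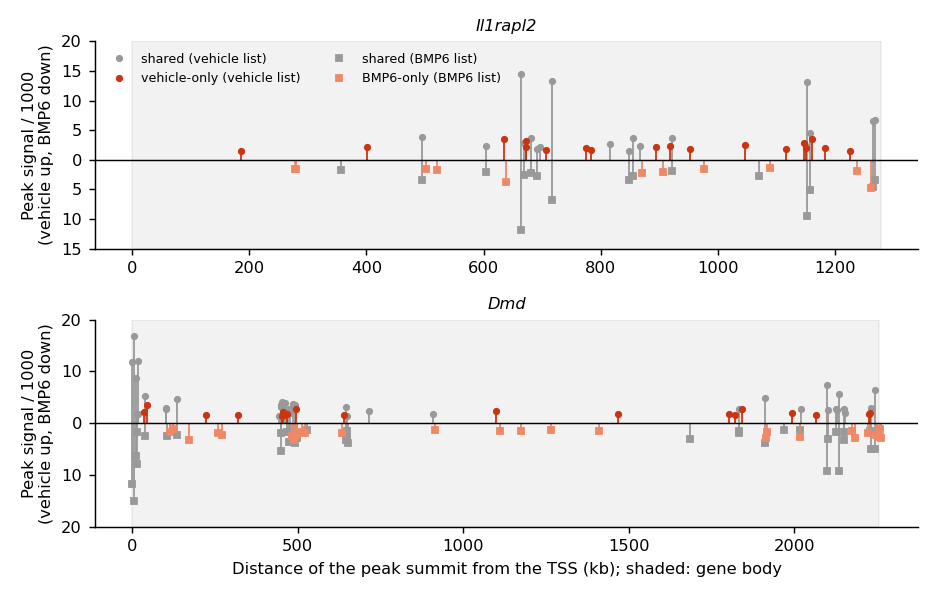
H3K27ac peaks at Il1rapl2 and Dmd at an IDR of at most 0.01, by the distance of the summit from the TSS (horizontal axis, kb) and by signal (vertical axis, a score divided by 1000), with the control list upwards (shared grey, vehicle-only red) and the BMP6 list downwards (shared grey, BMP6-only orange). Signals of both lists have no stated common scale; each gene had 18 vehicle-only peaks, with signals of at most 3483.

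On the autosomes, Epb41l2, a gene for a membrane skeleton protein, had most with 8 of 33 control peaks (24.2%), and it had no BMP6-only peak among 26 BMP6 peaks. Frmd4a had 7 of 43 (16.3%), with 4 BMP6-only peaks, and Enox1, a gene for a cell-surface oxidase, had 7 of 38 (18.4%), with 3. Over all autosomes the share was 4.81%, and these genes were picked for their number of vehicle-only peaks. The strongest peak at Epb41l2, at chr10:25377201-25380000, had 2236 in the first and 1400 in the second column, and a BMP6 peak lay 40 bp away from it.

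Of the genes of the BMP pathway, 7 of 41 had a vehicle-only peak within 20 kb (17.1%, against 12.4% of all genes): Smad4, Smad9, Smad6, the receptor genes Bmpr1a, Bmpr1b and Bmpr2, and Acvr1. Together these were 12 of 194 control peaks of the list (6.19%), against 2411 of 44463 (5.42%) around all protein-coding genes. All 12 were in the lowest quintile of signal, where they were 12 of 30 peaks (40.0%), against 20.8% around all genes. These are counts, with 4 of the 12 peaks at 1 gene, and no test of the list was made. The 12.4% is a share of all protein-coding genes, of which 72.0% had any control peak, here and for the lists below.

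Smad4, the partner SMAD of all BMP and TGF-beta signals, had 4 vehicle-only peaks among 7 control peaks (57.1%). They had signals from 1601 to 1977 and lay in the distal part of the gene, 48082 to 55736 bp downstream of its TSS for the 3 in introns, and just beyond its end for the other. The 3 shared peaks of Smad4 had signals from 2558 to 6160, and the BMP6 list had 4 peaks there, 1 of them BMP6-only with a signal of 1645. Bmpr1a, a type I receptor gene, had 3 of 12, the strongest with 904 in the first and 863 in the second column. Bmpr2, the type II receptor gene, had 1 of 2 control peaks, with 1054 and 673, and 1 of its 2 BMP6 peaks was BMP6-only. Smad9, a signal-carrying SMAD, had 1 of 7, with 951 and 997, 6620 bp from the nearest BMP6 peak. Smad6, an inhibitory SMAD, had 1 of 11, with 1196 and 630. None of the vehicle-only peaks of these 5 genes overlapped a SMAD peak, and only 1.00% of all vehicle-only peaks did.

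Of the Notch pathway genes, 6 of 33 had a vehicle-only peak (18.2%), against 12.4% of all genes. By peaks the direction was the opposite, with 7 of 200 control peaks (3.50%), against 5.42% around all genes. The peak near Adam17, whose protease sheds the Notch ectodomain, had 953 in the first and 1070 in the second column and lay within Cpsf3, and that in Notch3, a receptor gene, had 1087 and 780. The coactivator genes Maml3 and Maml2 had 2 of 24 and 1 of 16, with signals from 1485 to 1620. In the lowest quintile the share was 15.8% (6 of 38), against 20.8% around all genes.

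Of the myogenic regulators, 5 of 26 had one (19.2%), with 6 of 183 control peaks (3.28%, against 5.42% around all genes) and 5 of 20 in the lowest quintile, against 1857 of 8907 (20.8%) around all genes. No vehicle-only peak was at Pax7, Myf5 or Myod1, and only 12.4% of all protein-coding genes had one within 20 kb. The E-protein gene Tcf3, whose products pair with myogenic factors at E-boxes, had the strongest, with 1446 and 1065 in the columns. Tcf12, another E-protein gene, had 2 of 23, and Tcf4 had 1 of 41. Eya2 had 1 of 2 control peaks, the one with SMAD4 described above. At Pitx3, a homeobox gene, the peak had 786 and 643 and lay in an intron of the neighbouring gene Gbf1.

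For the other lists, the share of control peaks that were vehicle-only is given beside the 5.42% around all genes. It was 6.96% for the Wnt pathway (8 of 115), 5.69% for the cell cycle (7 of 123), 4.81% for extracellular matrix and adhesion (15 of 312), 4.76% for MuSC markers (5 of 105), 4.70% for the TGF-beta and activin pathway (7 of 149), 3.80% for FGF and receptor tyrosine kinases (10 of 263), 2.68% for the circadian clock (3 of 112) and 2.54% for AP-1 and immediate early genes (3 of 118). Genes of cytosolic ribosomal proteins had none among 107 control peaks. Among markers of other cell types, the share was 8.33% for myofibres (3 of 36), 6.35% for Schwann cells (4 of 63) and 2.50% for pericytes and smooth muscle (1 of 40). Fibro-adipogenic (34 peaks), endothelial (34) and immune markers (18) had none. These shares do not account for signal. In the lowest quintile, the share was 27.3% for MuSC markers (3 of 11) and 21.4% for the TGF-beta list (6 of 28). Both lay above the 20.8% around all genes, so the direction was the opposite. The lists with none had few peaks in that quintile: 9 for ribosomal proteins, 5 for fibro-adipogenic, 3 for endothelial and 2 for immune markers.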

How the data were processed

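The 6 consensus CUT&Tag lists of 12 libraries in 2 conditions were used as the authors deposited them. Per the methods, reads were subsampled to an equal depth per antibody and aligned to GRCm39 (Bowtie2 2.5.4 and SAMtools 1.21 per the labels), peaks were called in each replicate with JAMM, and both replicates were joined with IDR at 0.05. The deposited signal is a score, and in each list the consensus value is the sum of both replicate columns. The IDR was deposited as −log10 of its value, and a second score column is the same on another scale. The other columns that the authors deposited hold positions. The authors' test of differential binding needs reads and was not repeated.

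Overlap was counted from 1 bp. Genes were 21757 protein-coding genes of GENCODE M39, by their canonical transcript. Shares have Wilson and differences Newcombe 95% intervals, and the limit of a share of 0 is 3 counts. Scripts ran in Python 3.11.15 with numpy 2.4.6, pandas 2.3.3, scipy 1.17.1 and pysam 0.24.0, and were tested on simulated data. Named genes were those nearest to the 20 strongest peaks, the 5 with most vehicle-only peaks, and up to 5 per list of the BMP, Notch and myogenic lists; others are named as chosen later, and some genes that the rule takes are not reported here. The regions, 18 gene lists and 13 motifs were chosen with earlier results of these data known.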

Additional observations from a re-analysis of the deposited data

How the results depend on the processing

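No paired analysis was possible because the replicate columns carry no replicate number and no result comes from a test. With the interval of 1 replicate column alone, the count of vehicle-only peaks ran from 3057 to 3064, genes within 20 kb from 2745 to 2752, the overlap with control SMAD4 from 0.425% to 0.457%, with BMP6 SMAD4 from 0.424% to 0.425%, with BMP6 pSMAD1/5/9 from 0.228% to 0.229%, the TSS share from 3.57% to 3.59%, introns from 43.7% to 44.3%, intergenic sequence from 33.7% to 34.1%, the X share from 19.7% to 19.9%, and the median GC content was 46.5% in both. Other settings moved the following values; the cause was not tested where the setting does not itself change the peaks taken. An IDR of at most 0.05 gave 8945 peaks at 6098 genes, 44.2% in introns and 16.4% on X, and an IDR of at most 0.005 gave 1798 peaks at 1740 genes, 22.5% on X. Asking for an overlap of 50% of both peaks gave 10958 peaks at 6596 genes, with 4.65%, 7.14% and 4.12% overlapping control SMAD4, BMP6 SMAD4 and BMP6 pSMAD1/5/9, 8.48% at a TSS, 25.3% intergenic, 11.2% on X and a GC content of 47.4%. Beyond 1 kb of a BMP6 peak, 37.5% were intergenic. On autosomes alone, BMP6 SMAD4 overlapped 0.249%, 30.9% were intergenic and the GC content was 47.0%. At a SMAD IDR of at most 0.01, the overlaps fell to 0.0334%, 0.100% and 0%. In quintiles 2 and 3, 0% overlapped control SMAD4. The TSS share was 2.14% with a window of 1 kb, 2.98% by the summit and 15.4% with all transcripts, the intron share 56.5% by the summit and 37.6% with all transcripts, and the intergenic share with all transcripts 29.8%. Of 13 motifs, 4 had an interval without 0 in 400 bp windows, where GGAGCC and GGAATG joined and CAGCTG left. The number of reads behind each peak is unknown, which limits how far weak peaks can be compared between lists.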

Other observations

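Some vehicle-only peaks lay far from any H3K27ac peak of the BMP6 list. The peak nearest to Actr3b, at chr5:26020701-26023700, was 66660 bp away from the nearest one, with 1488 in the first and 2050 in the second replicate column, and that nearest to Spin2-ps2 was 49580 bp away, with 1803 and 1836. At the TSS of Sh3rf2 the gap was 55530 bp. The X chromosome held 11 of the 30 vehicle-only peaks that overlapped any SMAD peak, 1.89% (1.06 to 3.35) of its own vehicle-only peaks, against 0.789% (0.506 to 1.23) of the autosomal ones.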
